A study of Mus musculus with 12 samples.

Results

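The collagen genes of a mouse uterine co-culture are described here across its epithelial and stromal cell layers, with and without estradiol. Members were the probe sets with a single gene symbol made of Col, a number, the letter a and a number, and a gene with several probe sets was represented by the one with the highest mean over the 12 arrays. This gave 44 collagen genes from 46 probe sets, of 19938 genes with a single-symbol probe set on the array. Uterine cells of CD-1 mice were taken on day 4 of pseudopregnancy, the epithelial sheets were kept on inserts coated with matrigel, a basement membrane extract, and the stromal cells on cover slips in the same wells. After a night in medium with 1% charcoal-stripped serum and no phenol red, the co-cultures received 10 nM estradiol (E2) or 0.01% ethanol as vehicle for 2 days, and the layers were then harvested separately. The 4 groups were therefore the epithelial layer with E2, the epithelial layer with vehicle, the stromal layer with E2 and the stromal layer with vehicle, with 3 arrays in each. All 4 shared the pseudopregnant origin and the other layer as a partner. Nothing in the labels ties the 3 arrays of a group to separate mice or wells, and the p-values therefore cover only the variation among these arrays, which may be technical.

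Collagens are extracellular proteins whose chains wind around each other into helical molecules. Fibrillar collagens such as I, III and V form the fibrils of connective tissue, collagen IV forms the sheet under epithelia, and collagen VI forms beaded filaments between cells and fibrils. In the uterus the stroma carries most of the fibrils, the epithelium rests on a basement membrane, and both matrices are remodelled through the cycle and around implantation. E2 is the ovarian hormone that acts through estrogen receptors present in both cell types.

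The values were log2 signals from RMA, so that a difference of 1 is a doubling, and a gene is said to have risen, fallen or differed only where its limma p, adjusted by Benjamini-Hochberg over 23410 probe sets with a symbol, was under 0.05. Levels of different genes are not set against each other, and whether a probe set lay above background was not tested. Of the 44 collagen genes, 32 lay above the array's median, 7.38 to 7.43, on all 12 arrays, 10 lay on both sides of it, and Col19a1 and Col28a1 lay below it on all 12. The 11 epithelial markers measured were all higher in the epithelial layer under both treatments, their mean being 10.11 to 11.81 on epithelial arrays and 6.72 to 7.31 on stromal arrays. The epithelial layer also had 12 stromal markers at a mean of 9.20 to 10.13, against 10.12 to 10.37 in the stromal layer, and 5 mesothelial markers at 9.45 to 10.44, against 7.17 to 7.38. The stromal markers were split. In the epithelial layer 9 were lower and 2 higher under vehicle, and 3 were lower and 3 higher under E2. Under vehicle Nt5e had a mean of 10.79 in the epithelial and 8.22 in the stromal layer, and Pdgfrb 11.23 and 12.86. In bulk RNA, fewer cells of a type and less RNA per cell cannot be told apart.

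Some arrays stood apart. Replicate 3 of the epithelial vehicle group had the lowest epithelial marker mean of its layer but for 1 E2 array (10.16, against 11.28 and 11.81 in its group) and a stromal marker mean of 10.06, against 9.53 and 9.20. E2 replicates 1 and 2 lay closest to each other in both layers, with a median absolute difference between their probe sets of 0.0831 in the epithelial and 0.0642 in the stromal layer, while the other pairs of the E2 groups differed by 0.099 to 0.253. By the same measure, epithelial vehicle replicate 2 lay farthest from its group, at 0.27 and 0.269, with 0.128 between replicates 1 and 3. Epithelial E2 replicate 3 lay 0.253 and 0.245 from its group. Counts without replicate 3 or replicate 2 of the epithelial vehicle group, and with E2 replicates 1 and 2 averaged, are given below beside the results they touch. The median SD of the 44 genes within a group was 0.172 in epithelial E2 arrays, 0.248 in epithelial vehicle arrays, 0.0887 in stromal E2 arrays and 0.134 in stromal vehicle arrays.

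Between the layers, under vehicle, 6 of 44 collagen genes were higher and 8 lower in the epithelial than in the stromal layer, 31.8% in all. Of all 23410 probe sets 21.4% passed, 7.27% higher and 14.1% lower. Under E2, 1 was higher and 6 were lower, 15.9% in all. Of all probe sets 13.6% passed, 4.43% higher and 9.18% lower. The median difference of the 44 genes was 0.04 under either treatment, against 0.02 over all probe sets tested. Beaded filament and basement membrane chains held most of the calls, and the 9 fibril-associated and 4 transmembrane collagens held none in either comparison (limma, 1 and 1 of the 13 at an unadjusted p under 0.05 under vehicle, 2 and 0 under E2). With E2 replicates 1 and 2 averaged, the count under E2 was 4 and that under vehicle 14, where 1420 and 3942 of all 23410 probe sets passed. Without replicate 3 of the epithelial vehicle group, the counts were 19 under vehicle and 10 under E2, where 4727 and 3485 of all passed. Without replicate 2 of that group they were 15 and 10, where 7197 and 4636 of all passed. As reported, 5001 of all probe sets passed under vehicle and 3184 under E2.

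**Figure D1:**
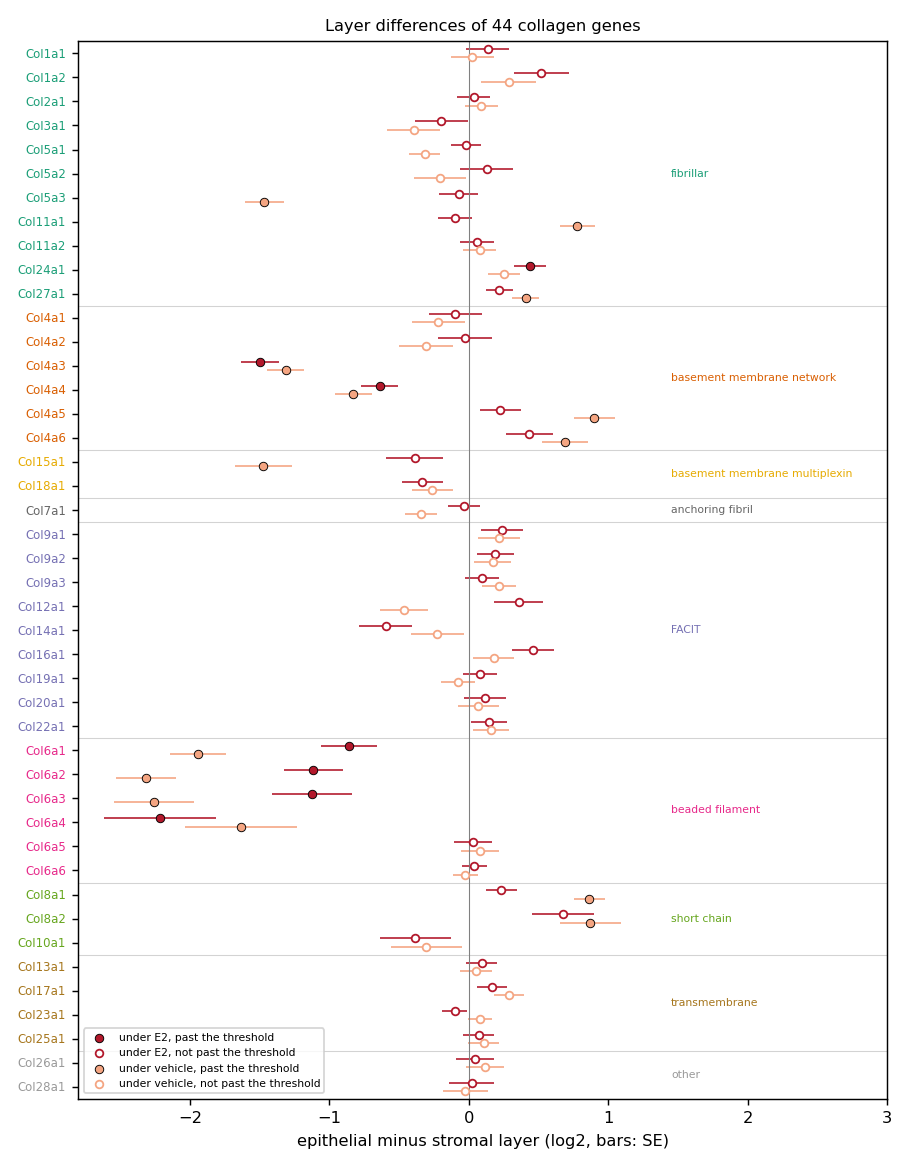
Difference of each of the 44 collagen genes between the epithelial and the stromal layer (x axis, log2, epithelial minus stromal), in dark red under E2 and in light orange under vehicle, with bars for the standard error and filled points for an adjusted p under 0.05. Col6a1, Col6a2, Col6a3, Col6a4, Col4a3 and Col4a4 lie left of 0 with filled points under both treatments, and Col5a3 and Col15a1 lie left of -1 under vehicle alone.

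Collagen VI showed the widest separation of the layers. Its main chains, Col6a1, Col6a2 and Col6a3, join into the molecule that forms beaded filaments and binds cells to the fibrils around them. Col6a2 read 10.12, 10.20 and 10.10 in the epithelial E2 arrays and 9.21, 9.04 and 9.90 in the epithelial vehicle arrays, against 11.18, 11.20 and 11.39 in the stromal E2 arrays and 11.42, 12.08 and 11.60 in the stromal vehicle arrays. No epithelial array reached any stromal array. The difference was -2.32 ± 0.21 (SE, n = 3 each) under vehicle, 4.98-fold lower in the epithelial layer with an adjusted p of 3.71e-05, and -1.12 ± 0.21 under E2, 2.17-fold lower with an adjusted p of 0.00467. Col6a3 read 10.39, 10.63 and 10.04 in epithelial E2 arrays and 9.74, 9.08 and 10.48 in epithelial vehicle arrays, against 11.44, 11.48 and 11.50 in stromal E2 arrays and 11.83, 12.35 and 11.89 in stromal vehicle arrays. Here too the layers did not overlap, with differences of -2.26 ± 0.29 under vehicle (adjusted p = 0.000294) and -1.12 ± 0.29 under E2 (adjusted p = 0.0231). Col6a1 read 10.15, 10.30 and 10.22 in epithelial E2 arrays and 9.45, 9.26 and 10.16 in epithelial vehicle arrays, against 11.00, 11.03 and 11.22 in stromal E2 arrays and 11.36, 11.85 and 11.49 in stromal vehicle arrays. It was 3.84-fold lower in the epithelial layer under vehicle (-1.94 ± 0.20, adjusted p = 8.25e-05) and 1.81-fold lower under E2 (-0.86 ± 0.20, adjusted p = 0.0152). With E2 replicates 1 and 2 averaged, Col6a1 and Col6a3 no longer passed under E2 (adjusted p = 0.095 and 0.106), while Col6a2 did. Under E2 the call of Col6a1 was also lost without stromal E2 replicate 3 (adjusted p = 0.0647) and that of Col6a3 without any one E2 array except epithelial replicate 2 (adjusted p of 0.0513 to 0.0864).

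With E2, the 3 main chains lay higher in the epithelial layer and lower in the stromal layer than with vehicle, without passing in either. Their E2 minus vehicle differences in the epithelial layer were 0.60 ± 0.20 for Col6a1 (adjusted p = 0.15), 0.76 ± 0.21 for Col6a2 (adjusted p = 0.0865) and 0.59 ± 0.29 for Col6a3 (adjusted p = 0.35). In the stromal layer they were -0.48 ± 0.20, -0.44 ± 0.21 and -0.55 ± 0.29, with adjusted p of 0.327, 0.438 and 0.513. The difference between those effects, 1.08, 1.20 and 1.14, did not pass for any of them (adjusted p = 0.128, 0.107 and 0.298). The outcome changed with the arrays used. Without replicate 3 of the epithelial vehicle group, which read highest of its group for all 3 chains, each was raised by E2 in epithelial arrays, by 0.87 for Col6a1 (adjusted p = 0.00532), 1.02 for Col6a2 (adjusted p = 0.00555) and 0.94 for Col6a3 (adjusted p = 0.0314). The difference between the layers' effects then passed for them as well, with adjusted p of 0.00528, 0.008 and 0.0262. Without replicate 2 of the epithelial vehicle group instead, none of the 3 chains passed in the epithelial layer or for that difference. With array weights, the 3 chains also passed in the epithelial layer (0.63, 0.78 and 0.66, adjusted p = 0.0139, 0.00681 and 0.0225). They passed too in the stromal layer (-0.46, -0.39 and -0.47, adjusted p = 0.0132, 0.0422 and 0.0261) and for the difference between the effects (adjusted p = 0.00291, 0.00295 and 0.00537). These weights were 0.12 for epithelial vehicle replicate 2 and 0.132 for epithelial E2 replicate 3. They were 6.01 and 6.69 for E2 replicate 2 of the epithelial and stromal layer. Under them 4706, 4503 and 4488 of all 23410 probe sets passed in these comparisons, against 678, 820 and 213 as reported. The mean of the 12 stromal markers moved alongside the collagen VI chains, at 10.12, 10.13 and 9.93 in epithelial E2 arrays and 9.53, 9.20 and 10.06 in epithelial vehicle arrays. Of these markers 10 of 12 had a positive E2 difference in the epithelial layer and 2, Prrx1 and Twist1, rose. Leukocyte markers had positive E2 differences in the epithelial layer in 8 of 8 (median 0.61, 1 rose), and epithelial markers had negative ones in 10 of 11 (median -0.74, 1 fell). The part of these markers in the collagen VI values was not tested.

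The other chains of the family did not act as a group. Col6a4, a long chain that is intact in mice and interrupted in humans, read 8.47, 8.34 and 7.95 in epithelial E2 arrays and 7.55, 6.98 and 7.69 in epithelial vehicle arrays. In the stromal layer it read 10.33, 10.41 and 10.67 with E2 and 8.49, 10.24 and 8.41 with vehicle, so that 1 vehicle array lay beside the E2 arrays. It was lower in the epithelial layer under both treatments, by -1.63 ± 0.40 under vehicle (adjusted p = 0.0133) and -2.22 ± 0.40 under E2 (4.65-fold, adjusted p = 0.00343). In the fit of the 6 vehicle arrays alone the vehicle call of Col6a4 was lost (adjusted p = 0.0692). Its E2 difference of 1.43 ± 0.40 in the stromal layer did not pass (adjusted p = 0.0912), and without stromal vehicle replicate 2 it was 2.02 ± 0.22 with an adjusted p of 0.000722. Col6a5 and Col6a6, the remaining long chains, stayed between 6.96 and 7.95 on all arrays and passed in none of the 5 comparisons.

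**Figure D2:**
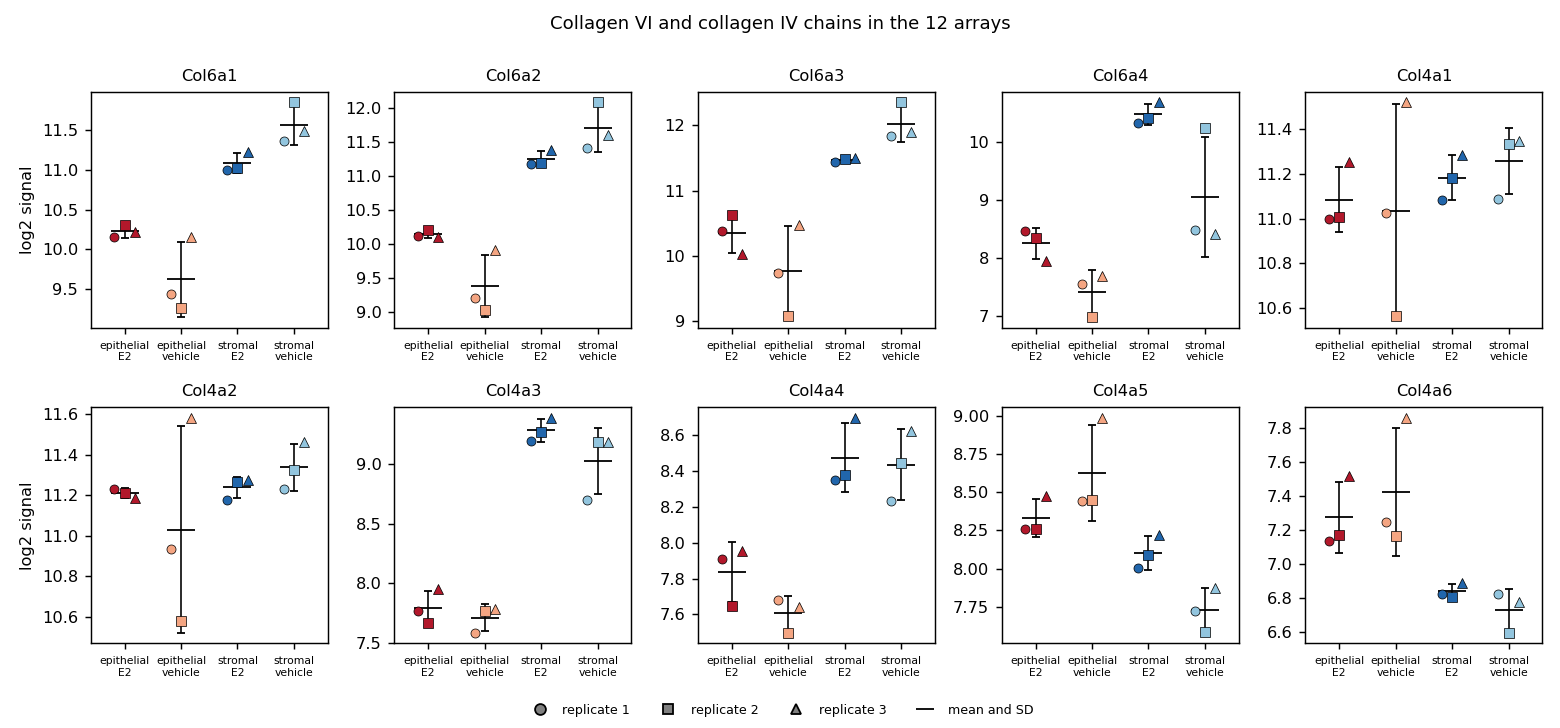
Log2 signal (y axis, a scale of its own in each panel) of 4 collagen VI and 6 collagen IV genes on the 12 arrays, by layer and treatment, with bars for mean and SD of 3 arrays. The means of the collagen VI chains, Col4a3 and Col4a4 lie lower in both epithelial groups, those of Col4a5 and Col4a6 lie lower in both stromal groups, and epithelial vehicle replicate 3 (triangle) is the highest of its group in 9 of the 10 panels, Col4a4 being the exception.

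The 6 collagen IV genes lie as 3 pairs of neighbours that are read in opposite directions, and in these arrays each pair took its own course between the layers. Promoter windows from RefSeq (GRCm38.p6), 250 bases before to 50 after the start of each gene, were matched by symbol for 35 of the 44 genes, with 38 windows. The starts of Col4a1 and Col4a2 lay 21 bases apart on opposite strands, with 78 bases of their windows in common, and the start of Col4a3 lay inside the Col4a4 window, while those of Col4a6 and Col4a5 lay 1343 bases apart. The windows of Col4a2 (chr8:11312555-11312854, plus strand) and Col4a4 (chr1:82586800-82587099, minus strand) are printed because each holds the start of both partners of a pair, 5′ to 3′ on the gene's own strand. Capitals mark, on either strand, the letters CCAAT of the CCAAT box, the letters GGGCGG of the GC box and the letters AGGTCA of the estrogen response element half-site.
Col4a2: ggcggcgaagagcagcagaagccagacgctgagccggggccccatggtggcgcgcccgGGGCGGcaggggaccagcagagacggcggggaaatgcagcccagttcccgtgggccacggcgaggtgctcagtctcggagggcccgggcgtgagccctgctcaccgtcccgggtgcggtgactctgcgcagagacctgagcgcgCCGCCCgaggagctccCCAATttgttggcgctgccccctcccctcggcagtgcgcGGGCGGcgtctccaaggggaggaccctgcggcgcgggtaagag
Col4a4: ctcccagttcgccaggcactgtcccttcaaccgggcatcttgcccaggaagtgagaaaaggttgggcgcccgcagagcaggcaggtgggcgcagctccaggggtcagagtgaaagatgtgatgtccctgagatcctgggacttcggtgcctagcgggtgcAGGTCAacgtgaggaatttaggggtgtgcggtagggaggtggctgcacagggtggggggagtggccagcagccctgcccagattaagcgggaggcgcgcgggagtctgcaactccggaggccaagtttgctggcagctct
The window of Col4a2 had 1 CCAAT box and 3 GC box matches and a GC content of 73.7%, and that of Col4a4 had 1 half-site match and a GC content of 63.3%.

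Col4a1 and Col4a2, the chains of the collagen IV found in all basement membranes, did not differ between any groups. Col4a1 read 11.00, 11.01 and 11.25 in epithelial E2 arrays and 11.02, 10.57 and 11.52 in epithelial vehicle arrays, against 11.08, 11.18 and 11.28 in stromal E2 arrays and 11.09, 11.33 and 11.35 in stromal vehicle arrays. Col4a2 read 11.23, 11.21 and 11.18 in epithelial E2 arrays and 10.93, 10.58 and 11.58 in epithelial vehicle arrays, against 11.18, 11.26 and 11.27 in stromal E2 arrays and 11.23, 11.32 and 11.46 in stromal vehicle arrays. The groups of both genes overlapped widely, and the spread was largest in the epithelial vehicle group. Layer differences under vehicle were -0.22 ± 0.19 for Col4a1 (adjusted p = 0.453) and -0.31 ± 0.19 for Col4a2 (adjusted p = 0.287), and no E2 difference of either exceeded 0.18. Without replicate 3 of the epithelial vehicle group Col4a2 passed, 0.45 ± 0.12 higher with E2 than with vehicle in epithelial arrays (adjusted p = 0.0419) and 0.58 lower in the epithelial layer under vehicle (-0.58 ± 0.12, adjusted p = 0.00496).

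The second pair, Col4a3 and Col4a4, whose products join the chain of Col4a5 in the basement membranes of kidney glomerulus and inner ear, was lower in the epithelial layer under both treatments. Col4a3 read 7.77, 7.66 and 7.95 in epithelial E2 arrays and 7.58, 7.76 and 7.78 in epithelial vehicle arrays, against 9.20, 9.27 and 9.39 in stromal E2 arrays and 8.70, 9.18 and 9.19 in stromal vehicle arrays. The difference was -1.32 ± 0.14 under vehicle (2.49-fold, adjusted p = 8.16e-05) and -1.50 ± 0.14 under E2 (2.82-fold, adjusted p = 4.28e-05). Col4a4 read 7.91, 7.64 and 7.95 in epithelial E2 arrays and 7.68, 7.50 and 7.64 in epithelial vehicle arrays, against 8.35, 8.38 and 8.70 in stromal E2 arrays and 8.23, 8.45 and 8.62 in stromal vehicle arrays. It was lower by -0.83 ± 0.13 under vehicle (adjusted p = 0.00121) and -0.64 ± 0.13 under E2 (adjusted p = 0.00778). These 4 calls held in every alternative run and with any array left out. Neither gene passed for E2 in a layer.

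The third pair, Col4a5 and Col4a6, whose products join in the basement membranes of smooth muscle and some epithelia, ran the other way. Col4a5 read 8.26, 8.26 and 8.47 in epithelial E2 arrays and 8.44, 8.45 and 8.99 in epithelial vehicle arrays, against 8.00, 8.09 and 8.22 in stromal E2 arrays and 7.72, 7.58 and 7.88 in stromal vehicle arrays. It was 1.87-fold higher in the epithelial layer under vehicle (0.90 ± 0.15, adjusted p = 0.00134), and under E2 the layers differed by 0.23 ± 0.15 (adjusted p = 0.349). The test of that change in the layer difference did not pass (-0.67 ± 0.21, adjusted p = 0.204). Col4a6 read 7.14, 7.17 and 7.52 in epithelial E2 arrays and 7.25, 7.17 and 7.86 in epithelial vehicle arrays, against 6.83, 6.81 and 6.89 in stromal E2 arrays and 6.83, 6.60 and 6.78 in stromal vehicle arrays. Every epithelial array lay above every stromal one, and the difference passed under vehicle (0.69 ± 0.17, adjusted p = 0.0129) but not under E2 (0.43 ± 0.17, adjusted p = 0.123). The vehicle call for Col4a6 was lost without stromal vehicle replicate 2 (adjusted p = 0.0563). It was also lost in the fit of the 6 vehicle arrays alone (adjusted p = 0.0551). Under E2 the Col4a6 difference passed in the fit of the 6 E2 arrays alone (adjusted p = 0.0472). It passed too without epithelial vehicle replicate 3 (adjusted p = 0.0246).

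With E2 in the epithelial layer, 0 of 44 collagen genes rose and 2 fell (limma), where 1.77% of all probe sets rose and 1.12% fell, and 4 collagens with a positive and 3 with a negative difference had an unadjusted p under 0.05. In the stromal layer 1 rose and 3 fell, where 1.52% of all probe sets rose and 1.98% fell. The share of collagens past the threshold in either direction was 4.55% in the epithelial layer, beside 2.9% of all probe sets, and 9.09% in the stromal layer, beside 3.5%. The median E2 difference of the 44 genes was 0.05 in the epithelial layer and 0.02 in the stromal layer, against 0.03 over all probe sets in each. With E2 replicates 1 and 2 averaged, 0 collagens passed in the epithelial layer (limma, 6 at an unadjusted p under 0.05) and 1, Col5a3, in the stromal layer. Of all 23410 probe sets 89 and 303 then passed, against 678 and 820 as reported. Without epithelial vehicle replicate 3, 9 collagens passed in the epithelial layer, 7 higher and 2 lower, where 1634 of all probe sets passed. Without epithelial vehicle replicate 2 it was 1, Col18a1, where 662 of all passed. Leaving out epithelial E2 replicate 1 or 2 left 0 collagens in the epithelial layer, with 6 and 7 at an unadjusted p under 0.05, where 219 and 220 of all passed.

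**Figure D3:**
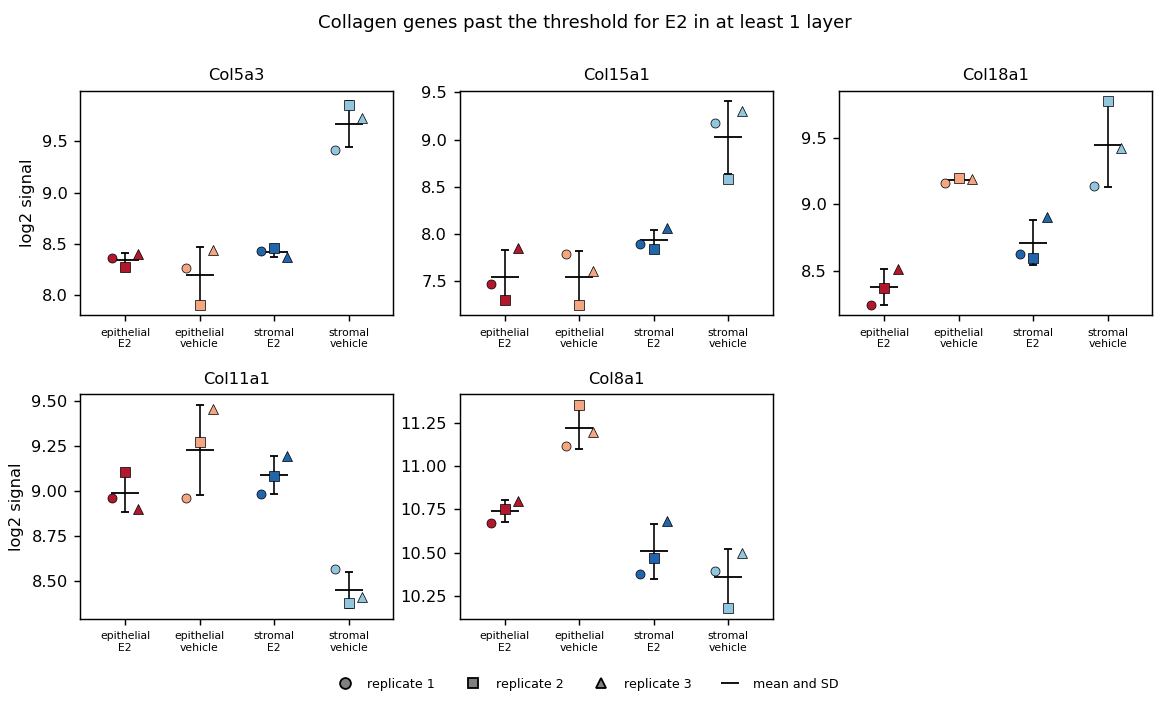
Log2 signal (y axis, a scale of its own in each panel) of the 5 collagen genes past the threshold for E2 in at least 1 layer, on the 12 arrays by layer and treatment, with bars for mean and SD of 3 arrays. Col5a3 and Col15a1 lie lower with E2 in the stromal layer, Col18a1 lies lower with E2 in both layers, Col11a1 lies higher with E2 in the stromal layer and Col8a1 lower with E2 in the epithelial layer.

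The multiplexins Col15a1 and Col18a1 encode collagens that sit at basement membranes and release antiangiogenic fragments, endostatin in the case of Col18a1. Col18a1 was the collagen gene that fell with E2 in both layers. It read 8.24, 8.37 and 8.51 with E2 and 9.16, 9.20 and 9.19 with vehicle in the epithelial layer, and 8.63, 8.60 and 8.90 with E2 and 9.14, 9.77 and 9.42 with vehicle in the stromal layer. All E2 arrays of a layer lay below its vehicle arrays. The difference was -0.81 ± 0.15 in the epithelial layer (1.75-fold lower, adjusted p = 0.0152) and -0.74 ± 0.15 in the stromal layer (1.66-fold lower, adjusted p = 0.0178). The difference between these effects was -0.07, with a 95% interval from -0.53 to 0.39. With E2 replicates 1 and 2 averaged, neither layer passed (adjusted p = 0.132 and 0.13), and the epithelial call was also lost without epithelial E2 replicate 1 or 2 (adjusted p = 0.0771 and 0.0703). The stromal call was lost without stromal E2 replicate 1 or 2 or stromal vehicle replicate 3 (adjusted p = 0.0871, 0.0921 and 0.0645).

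Col15a1 fell with E2 in the stromal layer. Its stromal readings were 7.90, 7.84 and 8.06 with E2 and 9.18, 8.59 and 9.30 with vehicle, while its epithelial readings were 7.47, 7.30 and 7.85 with E2 and 7.79, 7.25 and 7.60 with vehicle. Stromal vehicle arrays lay above all others, and epithelial E2 and vehicle arrays overlapped. The stromal difference was -1.09 ± 0.20 (2.13-fold lower, adjusted p = 0.0121) and the epithelial one 0.00 ± 0.20 (adjusted p = 0.995), but the test of their difference did not pass (1.09 ± 0.29, adjusted p = 0.131). Between the layers the gene was 2.78-fold lower in the epithelial layer under vehicle (-1.48 ± 0.20, adjusted p = 0.000508) and by -0.39 ± 0.20 under E2, which did not pass (adjusted p = 0.247). The stromal E2 call was lost with E2 replicates 1 and 2 averaged (adjusted p = 0.0862) and, taken singly, without E2 replicate 1 or 2 or vehicle replicate 1 or 3 of that layer (adjusted p of 0.0552 to 0.0639).

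Among the 11 fibrillar collagens, the abundant fibril genes of connective tissue did not pass in any comparison. Col1a1, a chain of collagen I, read 12.27, 12.22 and 12.73 in epithelial E2 arrays and 12.55, 12.50 and 12.91 in epithelial vehicle arrays, against 12.17, 12.21 and 12.43 in stromal E2 arrays and 12.47, 12.75 and 12.66 in stromal vehicle arrays. The layers overlapped, with a difference of 0.03 ± 0.15 under vehicle (adjusted p = 0.922) and 0.14 ± 0.15 under E2 (adjusted p = 0.614). Col1a2, the other chain of collagen I, read 11.41, 11.46 and 11.92 in epithelial E2 arrays and 11.80, 11.72 and 12.39 in epithelial vehicle arrays, against 10.89, 10.94 and 11.39 in stromal E2 arrays and 11.57, 11.72 and 11.77 in stromal vehicle arrays. Col3a1, the gene of collagen III, read 9.78, 9.78 and 10.01 in epithelial E2 arrays and 10.06, 9.88 and 10.65 in epithelial vehicle arrays, against 10.01, 9.92 and 10.22 in stromal E2 arrays and 10.45, 10.91 and 10.43 in stromal vehicle arrays. All 3 genes had negative E2 differences in both layers. For Col1a1, Col1a2 and Col3a1 these were -0.25, -0.38 and -0.34 in the epithelial layer (adjusted p = 0.493, 0.392 and 0.43) and -0.36, -0.61 and -0.54 in the stromal layer (adjusted p = 0.351, 0.157 and 0.202). In the fit of the 6 stromal arrays alone, Col1a2 fell with E2 (-0.61 ± 0.13, adjusted p = 0.0283). With array weights all 3 genes fell in the stromal layer (adjusted p = 0.00694, 0.000657 and 0.00298) and Col1a1 and Col1a2 in the epithelial layer (adjusted p = 0.0212 and 0.0295). Under these weights 4503 and 4706 of all 23410 probe sets passed in the stromal and epithelial layer, against 820 and 678 as reported. Without epithelial vehicle replicate 3, Col3a1 was lower in the epithelial layer under vehicle (-0.62 ± 0.16, adjusted p = 0.0184).

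**Figure D4:**
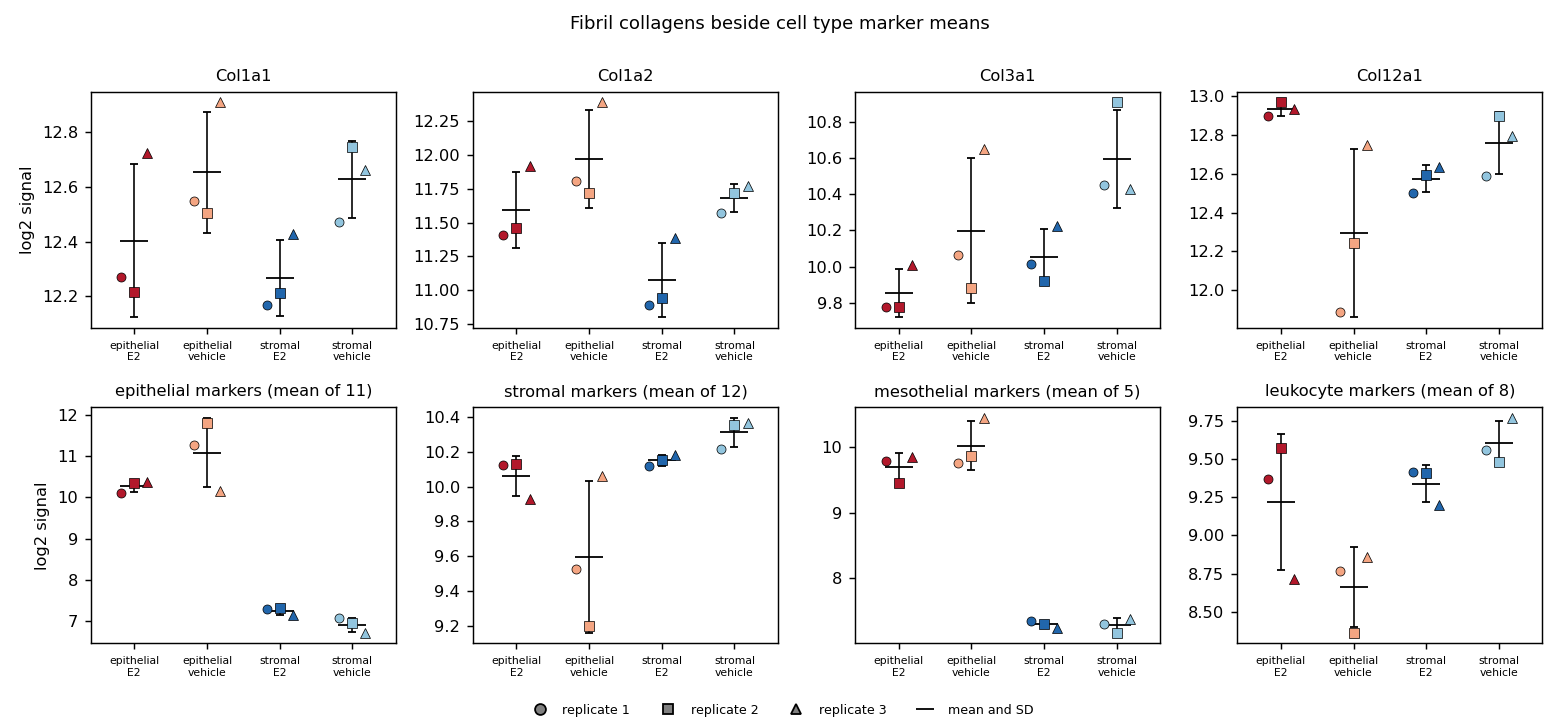
Log2 signal (y axis, a scale of its own in each panel) of 4 fibril collagen genes in the upper row and the mean log2 signal of 4 sets of cell type markers in the lower row, on the 12 arrays by layer and treatment, with bars for mean and SD of 3 arrays. Col1a1 lies between 12.17 and 12.91 in both layers while the epithelial marker mean lies between 10.11 and 11.81 in the epithelial and between 6.72 and 7.31 in the stromal layer, and epithelial vehicle replicate 3 (triangle) is lowest of its group for epithelial markers and highest for the 4 collagens.

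The fibrillar genes that moved belong to collagens V and XI, minor partners that are built into fibrils and limit their width. Promoter windows of Col5a3 (chr9:20815018-20815317, minus strand) and Col11a1 (chr3:114030290-114030589, plus strand) are printed because their levels differed with E2 in opposite directions in the stromal layer and because they are the collagen genes whose E2 effect differed between the layers. They run 5′ to 3′ from 250 bases before the start to 50 after it in RefSeq (GRCm38.p6), with the same motifs in capitals.
Col5a3: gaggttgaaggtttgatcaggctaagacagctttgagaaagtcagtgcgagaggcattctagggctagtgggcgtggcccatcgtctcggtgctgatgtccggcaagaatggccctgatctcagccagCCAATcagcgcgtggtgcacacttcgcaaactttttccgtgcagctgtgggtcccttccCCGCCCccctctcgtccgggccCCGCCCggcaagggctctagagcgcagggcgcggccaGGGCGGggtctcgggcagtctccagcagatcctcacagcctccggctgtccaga
Col11a1: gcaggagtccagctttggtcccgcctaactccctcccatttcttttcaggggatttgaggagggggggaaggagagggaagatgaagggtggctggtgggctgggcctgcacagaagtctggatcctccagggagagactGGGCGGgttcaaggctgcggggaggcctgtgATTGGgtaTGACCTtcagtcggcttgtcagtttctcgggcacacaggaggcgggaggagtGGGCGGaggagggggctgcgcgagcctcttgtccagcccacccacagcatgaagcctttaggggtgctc
Both held 1 CCAAT box. The window of Col5a3 had 3 GC box and 0 half-site matches and that of Col11a1 had 2 GC box matches and 1 half-site match, a match being a run of letters and not a shown binding site.

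Col5a3 was lower with E2 in the stromal layer by the largest amount of the 44 genes. It read 8.43, 8.46 and 8.37 in stromal E2 arrays and 9.42, 9.85 and 9.73 in stromal vehicle arrays. Its epithelial readings were 8.36, 8.28 and 8.40 with E2 and 8.26, 7.90 and 8.44 with vehicle. The stromal vehicle arrays thus stood alone at the top, and the stromal E2 arrays lay with the epithelial ones. The E2 difference was -1.25 ± 0.14 in the stromal layer (2.38-fold lower, adjusted p = 0.000547) and 0.14 ± 0.14 in the epithelial layer (adjusted p = 0.722). The effects differed by 1.39 ± 0.20 (epithelial minus stromal, adjusted p = 0.00959), in a comparison that 2 of the 44 collagens (4.55%), 1 in each direction, and 0.91% of all probe sets passed, 0.641% with a positive and 0.269% with a negative difference. Between the layers Col5a3 was 2.76-fold lower in the epithelial layer under vehicle (-1.47 ± 0.14, adjusted p = 4.69e-05), with a difference of -0.07 ± 0.14 under E2 (adjusted p = 0.776). The stromal call held with any array left out and in every alternative, at an adjusted p of up to 0.0108, while the difference between the effects was lost with E2 replicates 1 and 2 averaged (1.42, adjusted p = 0.113).

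Col11a1, better known from cartilage, was the collagen gene that rose with E2, in the stromal layer. It read 8.99, 9.08 and 9.20 in stromal E2 arrays and 8.57, 8.38 and 8.41 in stromal vehicle arrays, and 8.96, 9.11 and 8.90 in epithelial E2 arrays and 8.96, 9.27 and 9.46 in epithelial vehicle arrays. The 3 stromal vehicle arrays were the lowest of the 12. The E2 difference was 0.64 ± 0.12 in the stromal layer (1.56-fold higher, adjusted p = 0.0153) and -0.24 ± 0.12 in the epithelial layer (adjusted p = 0.377), and these differed by -0.88 ± 0.18 (adjusted p = 0.0469). Under vehicle it was 1.72-fold higher in the epithelial layer (0.78 ± 0.12, adjusted p = 0.00118), and under E2 the layers differed by -0.10 ± 0.12 (adjusted p = 0.643). With E2 replicates 1 and 2 averaged, neither the stromal E2 difference (adjusted p = 0.0811) nor the difference between the effects (adjusted p = 0.234) passed. The E2 difference was also lost without stromal E2 replicate 2 or 3 or stromal vehicle replicate 2 or 3 (adjusted p of 0.0594 to 0.0706), and the difference between the effects without any one stromal array, epithelial E2 replicate 1 or 2 or epithelial vehicle replicate 2 (adjusted p of 0.0627 to 0.13).

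The remaining fibrillar genes varied less. Col27a1, a fibrillar chain of developing cartilage, read 8.43, 8.39 and 8.68 in epithelial E2 arrays and 8.77, 8.78 and 8.77 in epithelial vehicle arrays, against 8.36, 8.27 and 8.23 in stromal E2 arrays and 8.43, 8.23 and 8.44 in stromal vehicle arrays. It was 1.33-fold higher in the epithelial layer under vehicle (0.41 ± 0.10, adjusted p = 0.0114). Col24a1, a fibrillar chain of developing bone, was higher in the epithelial layer under E2, at 7.71, 7.70 and 7.52 against 7.23, 7.21 and 7.17 in the stromal layer (0.44 ± 0.12, 1.35-fold, adjusted p = 0.0285). With vehicle it read 7.53, 7.47 and 7.92 in the epithelial and 7.30, 7.49 and 7.37 in the stromal layer, which overlapped. The Col24a1 call was lost with E2 replicates 1 and 2 averaged (adjusted p = 0.181) and without any one E2 array except epithelial replicate 3 (adjusted p of 0.0752 to 0.0936), and that of Col27a1 without stromal vehicle replicate 2 (adjusted p = 0.0544). Col5a1 had a vehicle layer difference of -0.32 ± 0.11, which missed the threshold (adjusted p = 0.0601) but passed with the replicate number of the vehicle arrays as a block (adjusted p = 0.0404). Col2a1, Col5a2 and Col11a2 passed in none of the 5 comparisons. Without epithelial vehicle replicate 3, Col5a2 passed for E2 in the epithelial layer (0.47 ± 0.11, adjusted p = 0.0322, against 0.20 with it) and between the layers under vehicle (-0.48 ± 0.11, adjusted p = 0.0126, against -0.21 with it).

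Short chain collagens form hexagonal networks, as in the cornea and around blood vessels. Col8a1 fell with E2 in the epithelial layer, reading 10.67, 10.75 and 10.80 with E2 and 11.11, 11.35 and 11.19 with vehicle. In the stromal layer it read 10.37, 10.47 and 10.68 with E2 and 10.39, 10.18 and 10.50 with vehicle, which overlapped. The epithelial E2 difference was -0.48 ± 0.11 (1.40-fold lower, adjusted p = 0.0432), and it was lost with E2 replicates 1 and 2 averaged (adjusted p = 0.235). It was also lost without any one of replicates 1 and 2 of epithelial E2, epithelial vehicle and stromal E2 arrays and replicates 1 and 3 of stromal vehicle arrays (adjusted p of 0.0561 to 0.169). Under vehicle Col8a1 was 1.82-fold higher in the epithelial layer (0.86 ± 0.11, adjusted p = 0.000327). Its partner chain Col8a2 read 8.20, 8.15 and 8.44 in epithelial E2 arrays and 8.24, 7.83 and 8.94 in epithelial vehicle arrays, against 7.61, 7.48 and 7.68 in stromal E2 arrays and 7.29, 7.60 and 7.51 in stromal vehicle arrays. All epithelial arrays lay above all stromal arrays, and the difference passed under vehicle (0.87 ± 0.22, 1.83-fold, adjusted p = 0.0161) but not under E2 (0.67 ± 0.22, adjusted p = 0.071). The vehicle call of Col8a2 was lost without stromal vehicle replicate 1 (adjusted p = 0.0632). It was also lost in the fit of the 6 vehicle arrays alone (adjusted p = 0.0758). Under E2 the Col8a2 difference passed in the fit of the 6 E2 arrays alone (adjusted p = 0.0062). It passed too with the replicate block over the 12 arrays (adjusted p = 0.0443). The same held without epithelial vehicle replicate 2 or 3 (adjusted p = 0.0155 and 0.00642). Col10a1, the hypertrophic cartilage collagen, passed in no comparison.

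Fibril-associated collagens (FACIT) lie on the surface of fibrils, and 0 of the 9 passed in any of the 5 comparisons (limma, 2, 2, 1, 1 and 2 at an unadjusted p under 0.05 for E2 in the epithelial layer, E2 in the stromal layer, the difference of the effects, and the layers under vehicle and under E2). Of all probe sets 2.9%, 3.5%, 0.91%, 21.4% and 13.6% passed in these comparisons, so that few or 0 calls among 9 genes say little in the first 3. Col12a1, the collagen XII chain that decorates collagen I fibrils, came nearest in the epithelial layer, reading 12.89, 12.97 and 12.93 with E2 and 11.89, 12.24 and 12.75 with vehicle. In the stromal layer it read 12.50, 12.59 and 12.63 with E2 and 12.59, 12.89 and 12.79 with vehicle. All epithelial E2 arrays lay above all epithelial vehicle arrays, and the difference was 0.64 ± 0.17 (adjusted p = 0.0779). Without epithelial vehicle replicate 3 it was 0.86 ± 0.13 with an adjusted p of 0.00286, and the marker shifts given for collagen VI moved alongside. Its vehicle layer difference of -0.46 ± 0.17 (adjusted p = 0.0813) passed with the replicate number of the vehicle arrays as a block (adjusted p = 0.0232). Col14a1, which also binds fibrils, had an E2 difference of 0.46 in the stromal layer (adjusted p = 0.317). Col16a1 passed for E2 in the epithelial layer without vehicle replicate 3 (0.53 ± 0.13, adjusted p = 0.0315, against 0.36 with it). The anchoring fibril gene Col7a1, the hemidesmosome gene Col17a1, the other transmembrane genes Col13a1, Col23a1 and Col25a1, and Col26a1 and Col28a1 passed in no comparison as reported. Under vehicle Col7a1 was lower in the epithelial layer with the low-value filter and with median scaling (adjusted p = 0.0497 and 0.0403). Without epithelial E2 replicate 3, Col7a1 was lower and Col17a1 higher there (adjusted p = 0.0296 and 0.0363). In the fit of the 6 stromal arrays alone Col7a1 fell with E2 (adjusted p = 0.0494).

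**Figure D5:**
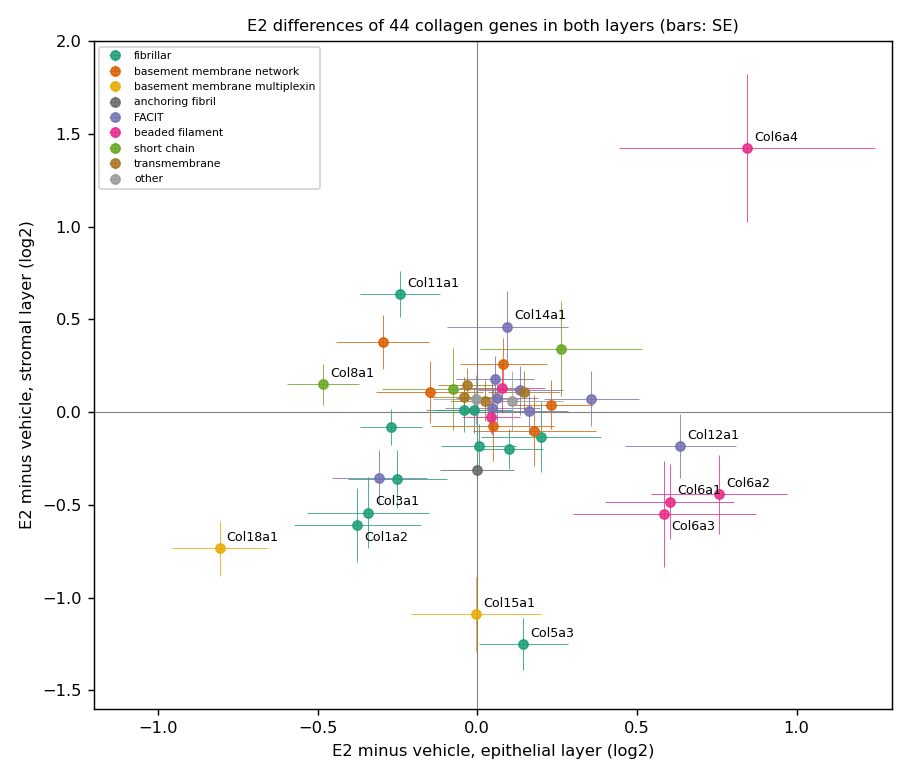
E2 minus vehicle difference of each of the 44 collagen genes in the epithelial layer (x axis, log2) and in the stromal layer (y axis, log2), coloured by class, with bars for the standard error. Col18a1 lies at lower left, Col5a3 and Col15a1 lie near 0 on the x axis and under -1 on the y axis, and Col6a1, Col6a2 and Col6a3 lie at lower right, though none of these 3 passed in either layer.

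Genes that process collagens gave a mixed picture. Alternative runs and fits without single arrays were read out for collagen genes only. Whether the calls of biosynthesis, receptor and fibril partner genes hold in them was not tested. Of 27 measured genes for collagen biosynthesis, 1 rose and 3 fell with E2 in the epithelial layer, and 2 rose and 2 fell in the stromal layer. That is 14.8% of the list in each layer, beside 2.9% and 3.5% of all probe sets. Pcolce2, an enhancer of the enzyme that trims the C-terminal end of procollagens, fell in both layers. It read 7.09, 6.85 and 7.21 with E2 and 8.55, 8.26 and 7.65 with vehicle in the epithelial layer, and 6.98, 6.94 and 7.18 with E2 and 8.01, 7.96 and 8.54 with vehicle in the stromal layer. The differences were -1.10 ± 0.22 (adjusted p = 0.0213) and -1.13 ± 0.22 (adjusted p = 0.0136). Adamts14, an enzyme that trims the N-terminal end, also fell in both, at 8.20, 8.09 and 8.22 with E2 against 8.74, 8.73 and 8.96 with vehicle in the epithelial layer (-0.64 ± 0.15, adjusted p = 0.0496) and 8.08, 8.09 and 8.19 against 9.54, 9.34 and 8.83 in the stromal layer (-1.12 ± 0.15, adjusted p = 0.00192). Its relative Adamts3, the brightest of 16 probe sets being used, rose in the epithelial layer, at 9.76, 9.54 and 9.89 with E2 against 8.12, 8.87 and 8.89 with vehicle (1.10 ± 0.18, adjusted p = 0.00869). In the stromal layer Adamts3 read 8.62, 8.54 and 8.42 with E2 and 8.93, 9.12 and 9.09 with vehicle (-0.52 ± 0.18, adjusted p = 0.196), and the effects differed (1.62 ± 0.26, adjusted p = 0.0146). Adamts14 and this Adamts3 probe set thus moved in different directions in the epithelial layer. The other Adamts3 probe sets are not given here, and Adamts2 was not analysed.

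The genes of this list that rose in the stromal layer were Loxl4 and P3h2. Loxl4, of the lysyl oxidase family that cross-links collagens, rose there, at 10.54, 10.62 and 10.39 with E2 against 8.74, 9.21 and 9.09 with vehicle (1.50 ± 0.21, 2.83-fold, adjusted p = 0.00209). In the epithelial layer it read 7.94, 7.96 and 7.57 with E2 and 8.04, 8.63 and 7.71 with vehicle, and the effects differed by -1.80 ± 0.30 (adjusted p = 0.0172). P3h2, a prolyl hydroxylase that acts on collagen IV, rose in the stromal layer, at 10.74, 10.82 and 10.88 with E2 against 9.49, 9.79 and 8.95 with vehicle (1.40 ± 0.25, 2.65-fold, adjusted p = 0.00893). Its epithelial readings of 8.62, 8.74 and 8.33 with E2 and 7.40, 8.39 and 7.76 with vehicle overlapped (0.71 ± 0.25, adjusted p = 0.164). Colgalt1, which adds galactose to collagen chains, fell in the epithelial layer, at 10.84, 10.87 and 11.00 with E2 against 11.21, 11.38 and 11.19 with vehicle (-0.36 ± 0.08, adjusted p = 0.046). Between the layers, 2 biosynthesis genes were higher and 7 lower in the epithelial layer under vehicle, and 3 were higher and 8 lower under E2, 33.3% and 40.7% of the list beside 21.4% and 13.6% of all probe sets.

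Of 9 measured collagen receptors and uptake genes, 1 rose with E2 in the epithelial layer and none passed in the stromal layer (limma, 3 at an unadjusted p under 0.05). These were 11.1% and 0% of the list, beside 2.9% and 3.5% of all probe sets. The one that rose was Itga11, the integrin chain by which fibroblasts bind fibrillar collagen, at 11.05, 11.04 and 10.85 with E2 against 9.25, 8.65 and 10.20 with vehicle (1.61 ± 0.28, 3.06-fold, adjusted p = 0.013). Its stromal readings were 12.90, 12.89 and 12.99 with E2 and 12.57, 12.82 and 12.69 with vehicle. Itga11 was 10.0-fold lower in the epithelial layer under vehicle (-3.33 ± 0.28), and its vehicle readings there were highest on replicate 3, as for collagen VI. The receptor genes Itga1, Ddr2 and Mrc2 were also lower in the epithelial layer under vehicle, and Ddr1, a collagen receptor of epithelia, was higher (0.55 ± 0.11, adjusted p = 0.00422). In that comparison 55.6% of the list passed, beside 21.4% of all probe sets. Of 7 fibril partners, Tnxb, the tenascin-X gene, passed for E2, at 7.07, 7.16 and 7.26 with E2 against 6.71, 6.79 and 6.75 with vehicle in the stromal layer (0.42 ± 0.09, adjusted p = 0.0285). This was 14.3% of the list in the stromal layer, beside 3.5% of all probe sets. In the epithelial layer 0 passed (limma, 2 at an unadjusted p under 0.05), beside 2.9%.

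Across the promoter windows, GGGCGG was found on either strand in 23 of 38 collagen windows (60.5%), where 35.7% of all 32851 windows held it. CCAAT was found in 34.2% of the collagen windows and 37.4% of all windows, TATAAA in 13.2% and 13.6%, and the AP-1 letters TGACTCA in 2.63% (Col6a1) and 5.2%. The estrogen response element half-site AGGTCA was found in 8 collagen windows (21.1%, against 16.3% of all), those of Col4a4, Col6a5, Col7a1, Col9a1, Col11a1, Col20a1, Col23a1 and Col24a1, of which Col11a1 rose with E2 in the stromal layer. The full palindrome, GGTCA and TGACC with 3 bases between them, was found in 0 of 38 collagen windows and in 0.07% of all windows, which says only that these letters are not within the windows searched. Overlaps between motifs were not removed.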

How the data were processed

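The authors deposited log2 signals of 35556 probe sets on 12 Mouse Gene 1.0 ST arrays of Affymetrix, made with RMA per the submitters' processing notes, whose version and settings are not given in the sources used here. These deposited log2 values were tested without further scaling or filter. Symbols came from the platform annotation and were replaced by the RefSeq symbol where RefSeq held the gene. The replacement changed no collagen symbol. Groups came from the labels, and the number of arrays limits the precision.

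limma 3.58.1 in R 4.3.3 (lmFit, eBayes, two-sided) was fitted to all 12 arrays and 4 groups, with 8 residual degrees of freedom and 3.27 from the prior. Benjamini-Hochberg adjustment ran over 23410 probe sets in each of 5 comparisons: E2 against vehicle in each layer, the difference of these effects, and the layers under each treatment. The ± of a difference is its SE. The script was tested on simulated data.

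The members and the lists were chosen with earlier results of these data known. All members may be named. Values per array are given for those past the threshold in an E2 comparison, for Col1a1, Col1a2, Col3a1, Col4a1 and Col4a2, and for the 6 largest passing differences in each direction between layers. The lists were 30 biosynthesis genes, 10 receptors, 7 fibril partners and 6 sets of cell type markers. Of the biosynthesis and receptor lists, Fkbp10, Adamts2, Loxl2 and Gp6 were not analysed here. Beside the marker sets given in the report, 8 smooth muscle markers had a mean of 10.22 to 10.69 in epithelial and 11.41 to 11.75 in stromal arrays, 8 leukocyte markers 8.36 to 9.57 and 9.20 to 9.77, and 8 endothelial markers 7.70 to 7.95 and 7.74 to 8.01.

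Replicate numbers came from the titles. Residuals of same-numbered arrays correlated at 0.125 to 0.175 between the layers under vehicle, where arrays of other numbers reached at most 0.00529. In the other comparisons same-numbered arrays correlated at -0.419 to 0.273. The labels state no pairing, and so few weak correlations cannot show whether the numbers pair the arrays. The block is given where it changed a call.

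Alternatives tried were all probe sets or those past a low-value filter, median and quantile scaling, array weights, a variance trend (robust prior), averaged probe sets per gene, a replicate block, fits of the 6 arrays compared, and fits without each array. The block over the vehicle arrays and the averaging of E2 replicates 1 and 2 were chosen after seeing the data. Promoter windows came from RefSeq (GRCm38.p6).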

Additional observations from a re-analysis of the deposited data

Results flagged for a closer look

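Col5a3 and Col11a1 are the collagen genes whose E2 effect differed between the layers by the test of the difference itself. For Col5a3 the epithelial effect exceeded the stromal effect by 1.39 on the log2 scale (limma, adjusted p = 0.00959), all 3 stromal E2 arrays lying below all 3 stromal vehicle arrays while the epithelial arrays overlapped. For Col11a1 it was lower by -0.88 (limma, adjusted p = 0.0469), all 3 stromal E2 arrays lying above all 3 stromal vehicle arrays while the epithelial arrays overlapped.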

How the results depend on the processing

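No collagen call as reported changed direction under any alternative run, but with array weights Col2a1, not called as reported (0.03), passed with the opposite sign between the layers under E2 (-0.14, adjusted p = 0.0379). The number past the threshold moved by over 1.5 times in some of them, and the cause was not tested. With array weights it was 10 for E2 in the epithelial layer (2 as reported), 14 in the stromal layer (4), 11 for the difference of the effects (2), 22 for the layers under vehicle (14) and 20 under E2 (7). Fitting only the 6 arrays compared gave 0 (limma, 6 at an unadjusted p under 0.05), 8 and, for the layers under E2, 11. With E2 replicates 1 and 2 averaged it was 0, 1, 0 (8 at an unadjusted p under 0.05) and, for the layers under E2, 4. All probe sets of the table gave 1 for E2 in the epithelial layer and 1 for the difference of the effects, where the variance trend with a robust prior also gave 1. Leaving out each array in turn gave 0 to 9 for E2 in the epithelial layer, 1 to 4 in the stromal layer, 1 to 6 for the difference of the effects, 12 to 19 for the layers under vehicle and 4 to 10 under E2.

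The replicate block over the 12 arrays gave 2, 5, 2, 14 and 11 in the same order. Of all 23410 probe sets 670, 871, 227, 5210 and 3313 then passed. The block added Col1a2 for E2 in the stromal layer (-0.61, adjusted p = 0.0163) and Col15a1 for the difference of the effects (1.09, adjusted p = 0.033). Col11a1 was lost for that difference (adjusted p = 0.0655). Between the layers under E2 the block added Col1a2, Col8a2, Col14a1 and Col16a1 (adjusted p = 0.0129, 0.0443, 0.023 and 0.0305). Over the vehicle arrays alone the block gave 16 between the layers under vehicle, with Col5a1 and Col12a1 added and no call lost. Of all probe sets 5352 then passed. Over all 23410 probe sets, 678, 820, 213, 5001 and 3184 passed as reported. With array weights 4706, 4503, 4488, 9867 and 11798 passed, and with the E2 replicates averaged 89, 303 and 12 for the first 3 comparisons and 1420 for the layers under E2. The 6 arrays compared gave 49 and 2142 for E2 in the epithelial and stromal layer and 3562 for the layers under E2. Testing all 35556 probe sets gave 531 for E2 in the epithelial layer and 128 for the difference of the effects. The variance trend with a robust prior gave 218 for that difference, and quantile normalization gave 1044 for E2 in the epithelial layer. Of the collagen calls, 0 of 2, 1 of 4, 0 of 2, 10 of 14 and 4 of 7 held in every alternative and with any array left out. Over all probe sets, leaving out each array in turn gave 219 to 1634, 413 to 1342, 81 to 725, 3385 to 7197 and 1953 to 4636 in the same order.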
